A study of Homo sapiens with 6 samples.

Results

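The genes described here encode subunits of the respiratory chain that are made from nuclear DNA. They were chosen by symbol: NDUFA, NDUFB, NDUFC, NDUFS and NDUFV genes for complex I, SDHA to SDHD for complex II, UQCR genes for complex III, COX4 to COX8 genes for complex IV and the ATP5F1, ATP5M and ATP5P genes for complex V, without 160 symbols that end in P and a number, as pseudogenes do. The rule took 94 of the 61806 genes in the table: 41 in complex I, 4 in complex II, 11 in complex III, 19 in complex IV and 19 in complex V. NDUFA4 and NDUFA4L2 carry complex I names and were placed in complex IV, where their proteins sit. The rule does not match every such subunit: CYC1, the cytochrome c1 of complex III, is outside it. Of the 94 members, 76 encode widely expressed subunits, 10 encode paralogs or tissue isoforms, 6 are noncoding neighbours that share a subunit's name and 2 are readthrough transcripts.

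Complexes I and II take electrons from NADH and succinate and pass them to coenzyme Q, complex III hands them to cytochrome c, and complex IV gives them to oxygen. Complexes I, III and IV pump protons across the inner mitochondrial membrane, and complex V, the ATP synthase, makes ATP as the protons flow back. All but complex II also hold subunits made from mitochondrial DNA, so building them needs both genomes, and in fibroblasts the chain is both the main consumer of oxygen and a source of superoxide.

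RNA was sequenced from HFF, a wild-type culture of human foreskin fibroblasts kept by a cell bank. All 6 libraries came from cells given 40 mJ per cm2 of UVB, the part of ultraviolet light that damages DNA directly, and then kept for 48 h. In the UVB group the medium held vehicle, and in the UVB + sauchinone group it held 10 µM sauchinone, a lignan from the plant Saururus chinensis, with 3 libraries in each group and 1 batch label for all. No unirradiated library is analysed here, so the comparison is of compound with vehicle after irradiation and says nothing of irradiation itself. The labels do not say whether the 3 libraries of a group came from separate cultures, so p-values measure the spread between these libraries, which may be technical.

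Library totals were 20984851, 22083818 and 23075536 counts with UVB and 21645464, 23076388 and 22929719 with sauchinone, and the members held between 0.529% and 0.619% of them. All 11 fibroblast markers passed the filter on low counts, and 10 of them were lower with sauchinone at an edgeR adjusted p under 0.05. Of all genes tested, 24.9% were lower by that measure. Their summed level ran from 19400 to 21100 CPM, the counts scaled to a common library size, with UVB and from 13600 to 13900 CPM with sauchinone. Markers of other cells were low: the sums of the 7 keratinocyte markers lay between 12.6 and 14.2 CPM with UVB and between 13.9 and 15.6 CPM with sauchinone, with KRT1, KRT5 and DSG3 at 0. The 6 melanocyte markers summed to 55.9 to 64.2 against 43.2 to 44.0 CPM, nearly all from MITF (57.2 and 42.1 CPM), with DCT at 0. Sums were 6.66 to 7.98 against 2.33 to 3.29 CPM for 5 endothelial markers (CDH5 and KDR at 0), 3.12 to 4.02 against 3.72 to 4.06 for 5 immune markers (CD3E at 0) and 0.673 to 1.67 against 1.08 to 1.73 for 6 skeletal muscle markers (MYOD1 and MYOG at 0). The part of any of these lists in the results was not tested.

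Respiratory chain promoters are known for sites of NRF1 and of ETS factors such as GABPA, so the promoter letters are shown before the values. For 74 of the 94 members, 64 of them tested subunits or isoforms, the RefSeq promoter table of GRCh38.p14 holds the bases around the start. The 250 bases before the start were searched on both strands for the exact letters of a motif. The core of an NRF1 site, GCGCA and GCGC with any 1 base between them, was found in 14 of the 64 promoters (21.9%) and in 5.07% of all 35116 promoters in the table. CCGGAAGT, the core of an ETS site, was in 10 of the 64 (15.6%) and in 3.42% of all, GGGCGG, an SP1 site, in 37 (57.8%) and in 42.6% of all, and AAGATGGC, a YY1 site, in 1.56% and 1.36%. The full set of promoters was not limited to genes tested here, as the 64 were, so these shares cover unlike sets of genes. The windows below are the promoter, in each complex, of the tested member with the smallest adjusted p-value that holds an NRF1 match, or an ETS match in complex IV, whose tested members had no NRF1 match. Each is 60 bases, 5′ to 3′ on the gene's own strand, with the match in capitals.
NDUFA9 (complex I), chr12:4649009-4649068, plus strand: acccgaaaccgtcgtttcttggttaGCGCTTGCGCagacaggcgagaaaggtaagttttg
SDHA (complex II), chr5:218129-218188, plus strand: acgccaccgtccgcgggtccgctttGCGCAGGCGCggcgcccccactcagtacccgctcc
UQCR11 (complex III), chr19:1605463-1605522, minus strand, 2 matches: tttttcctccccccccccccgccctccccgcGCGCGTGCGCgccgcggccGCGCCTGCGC
COX8A (complex IV, ETS match), chr11:63974560-63974619, plus strand: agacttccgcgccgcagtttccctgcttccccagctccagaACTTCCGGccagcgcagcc
ATP5PO (complex V), chr21:33915805-33915864, minus strand: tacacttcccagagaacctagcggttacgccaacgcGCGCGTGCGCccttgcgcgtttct
A match is a run of letters and not a measured binding site. Among the promoters with a window, the NRF1 letters were in 1 of 13 members called higher with sauchinone, 1 of 6 called lower and 12 of 45 with no call. The ETS letters were in 3, 0 and 7 of them, and the SP1 letters in 10, 1 and 26.

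Sauchinone left most respiratory chain genes close to their level after UVB alone. A gene was called where edgeR's quasi-likelihood test gave an adjusted p under 0.05, with p-values adjusted by the Benjamini-Hochberg method over all 15704 genes tested. Of the 84 members tested, 17 were higher and 9 lower with sauchinone, so 31.0% were called, 20.2% higher and 10.7% lower. Over all genes tested 49.6% were called, 24.7% higher and 24.9% lower. Among well counted genes the order was the same: of the 69 members at 20 CPM or more 33.3% were called, against 60.9% of the 7116 genes at that level (31.6% higher and 29.2% lower). The 3 libraries of each group did not overlap for 32 members (38.1%), 21 with sauchinone above and 11 below, against 57.1% of all genes (28.6% above and 28.5% below).

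The changes were also small in size. The median log2 fold change of the members, sauchinone minus UVB, was 0.12, against 0.01 over all genes. The median absolute log2 change was 0.172 against 0.363, and 49 members (58.3%) lay within 0.2 of zero on the log2 scale against 30.2% of all genes. A change of at least 2-fold was fitted for 1 member, NDUFA4L2, and for 12.2% of all genes. The median standard error (SE) was 0.091 for the members and 0.12 for all genes. Without the noncoding and readthrough genes, 80 members were tested, with 16 higher and 9 lower.

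**Figure D1:**
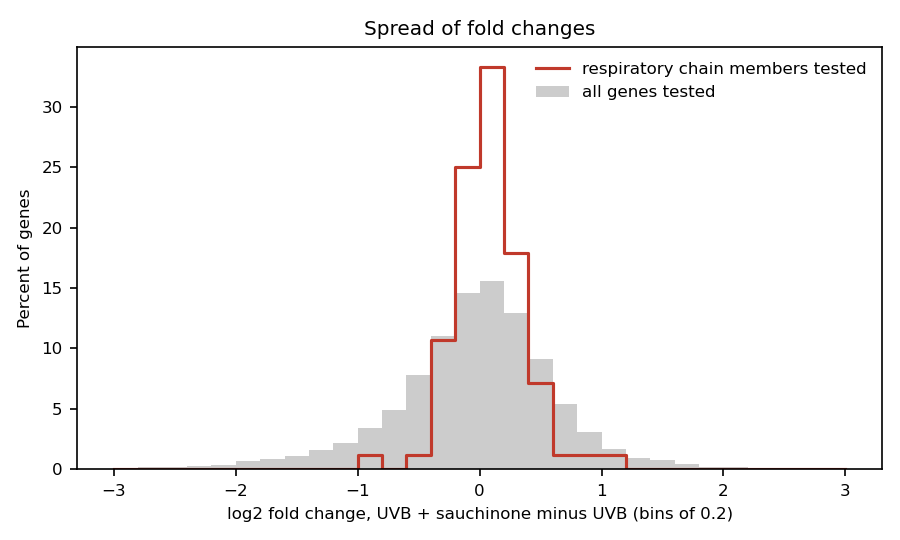
Share of genes (y axis, percent) by log2 fold change, UVB + sauchinone minus UVB (x axis, bins of 0.2), for all 15704 genes tested (grey bars) and the 84 members tested (red line). Values beyond 3 on either side are not drawn; 58.3% of members lie within 0.2 of zero, against 30.2% of all genes.

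Summed over members, the respiratory chain took 5627, 6048 and 5377 CPM in UVB replicates 1, 2 and 3 and 6051, 6018 and 6025 CPM with sauchinone. The UVB libraries spread widely and replicate 2 reached the sauchinone level, so the groups overlapped, with a ratio of means of 1.06. ATP5F1B alone made up much of the gap: the ratio without it was 1.02. By complex, the sums did not overlap for complex IV (916.2 ± 57.2 and 1017 ± 9.01 CPM, SD, n = 3 each) and for complex V (2216 ± 134 and 2427 ± 11.4 CPM), both higher with sauchinone. Without ATP5F1B the complex V sums overlapped, at 1617 ± 79.4 and 1563 ± 13.1 CPM, a ratio of 0.967. The sums of complexes I, II and III overlapped, with ratios of 1.01, 1.02 and 1.02. In bulk RNA such a sum is a share of the library, and fewer cells of a type cannot be told apart from less RNA per cell.

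The UVB libraries differed from each other in the members as a group. UVB replicate 2 was the highest of the 3 UVB libraries in 63 of 84 members (75.0%; 37.3% of all genes), and UVB replicate 3 was the lowest in 57 (67.9%; 40.0% of all genes). The members' median deviation from the UVB mean was 0.0949 on the log2 scale in replicate 2, -0.0976 in replicate 3 and -0.0163 in replicate 1. In the sauchinone libraries the same measure, taken from their own mean, lay between -0.00273 and 0.0144. The counts of calls moved with these libraries: without UVB replicate 2 there were 27 higher and 7 lower, and without UVB replicate 3 there were 10 higher and 9 lower, with a median of 0.036. They were 11 and 7 without UVB replicate 1, and 11 and 7, 14 and 7, and 10 and 8 without sauchinone replicates 1, 2 and 3. What set the 2 UVB libraries apart was not tested.

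**Figure D2:**
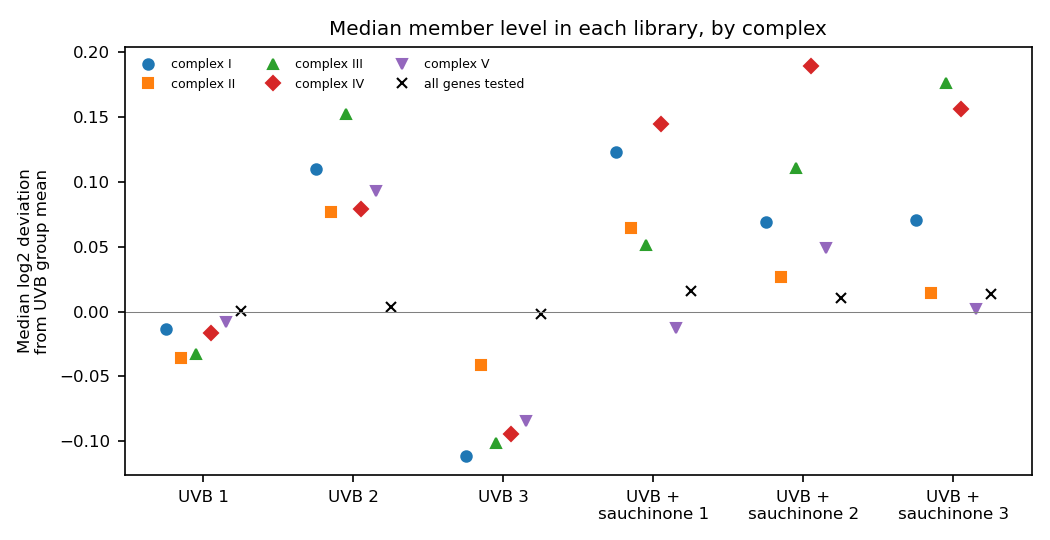
Median log2 deviation from the UVB group mean (y axis) in each of the 6 libraries (x axis), over the tested members of each complex and, in black, over all 15704 genes tested. UVB replicate 2 is above and UVB replicate 3 below the mean in all 5 complexes, while the median of all genes stays between -0.00214 and 0.016.

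Complex I had 40 tested members, with 8 higher, 4 lower and a median log2 change of 0.11. It had 30.0% of its members called, against 49.6% of all genes tested. Its lowest value was that of NDUFS4, a supernumerary subunit needed to finish and stabilise the NADH-binding arm and a gene mutated in Leigh syndrome. NDUFS4 (chr5:53560633-53683338, GRCh38, plus strand) stood at 40.2, 44.4 and 41.8 CPM with UVB and at 22.8, 20.9 and 20 CPM with sauchinone. Every sauchinone library was below every UVB library. The means were 42.1 ± 2.1 and 21.2 ± 1.4 CPM (SD, n = 3 each), a log2 change of -0.99 ± 0.096 (SE), or 1.98-fold lower (edgeR adjusted p = 1.7e-08). NDUFS4 was called lower in each of the 17 alternatives tried, with log2 changes from -1.1 to -0.687.

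The nuclear core subunits of complex I, which carry the flavin and the iron-sulfur clusters, had a median of -0.01. NDUFS3, a core subunit of the arm that leads to the coenzyme Q site, read 30.7, 32.8 and 29.6 CPM with UVB and 37.8, 34.1 and 40.0 CPM with sauchinone, all 3 higher, with a log2 change of 0.27 ± 0.095 (edgeR adjusted p = 0.024). NDUFS1, NDUFS7, NDUFS8, NDUFV1 and NDUFV2 were not called. NDUFS1, the largest core subunit and the best counted at 197.3 ± 7.14 and 195.7 ± 4.61 CPM, had a log2 change of -0.01 with a 95% interval from -0.16 to 0.13. NDUFV1, which binds NADH, had -0.16 (interval -0.37 to 0.05), NDUFV2 0.14, NDUFS8 -0.07 and NDUFS7 0.26, the last from only 6.65 ± 1.54 and 7.94 ± 0.941 CPM and with an interval from -0.10 to 0.61.

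Among the 29 supernumerary subunits of complex I, 6 were higher and 3 lower, so 31.0% were called, against 49.6% of all genes tested. NDUFB11, an X-linked subunit of the membrane arm, read 19.6, 23.3 and 19.7 CPM with UVB and 30.1, 28.5 and 29.0 CPM with sauchinone. The groups did not overlap, and the log2 change was 0.48 ± 0.10 (edgeR adjusted p = 0.00042). NDUFB9, also of the membrane arm, read 54.0, 59.9 and 49.0 against 73.6, 71.7 and 73.6 CPM, again without overlap (log2 0.43, edgeR adjusted p = 0.00032). NDUFA2, a small subunit of the matrix arm, had a log2 change of 0.35 (edgeR adjusted p = 0.0034) with means of 25.9 ± 1.45 and 33.0 ± 0.741 CPM. NDUFA13, NDUFB10 and NDUFB2 were the other 3, at log2 changes of 0.30, 0.26 and 0.24, and the NDUFA13 and NDUFB2 groups overlapped.

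NDUFB5 and NDUFA5 were lower beside NDUFS4. NDUFB5, of the membrane arm, read 66.9, 67.1 and 68.3 CPM with UVB and 51.5, 47.7 and 52.1 CPM with sauchinone, a tight and separate pair of groups (log2 -0.42, edgeR adjusted p = 0.00021). NDUFA5, of the matrix arm, read 70.5, 71.0 and 82.9 against 60.2, 58.9 and 59.5 CPM, also separate (log2 -0.33, edgeR adjusted p = 0.0028). The other 20 supernumerary subunits were not called. Among them were NDUFS5 and NDUFA1, with the highest FPKM of complex I with UVB, 185.2 and 121.5 (a level scaled by exonic length and library total). That order depends on the annotated exonic length, 548 and 421 bases for these genes. NDUFS1, at 12174 bases and a higher CPM than either, had 16.0 FPKM with UVB. NDUFB3 and NDUFC2 came nearest to a call, at -0.20 and 0.19 (edgeR adjusted p = 0.064 for each). Of 3 tested noncoding neighbours, NDUFB2-AS1 was higher at 0.993 ± 0.39 and 1.8 ± 0.438 CPM, and it shares its place on the other strand with NDUFB2 and with ADCK2, which stood at 11.7 CPM and had a log2 change of 0.90 against 0.86 for NDUFB2-AS1.

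Not every call in complex I held when a library was left out. NDUFS3 lost it without UVB replicate 1 or sauchinone replicates 1 or 3 (edgeR adjusted p = 0.088, 0.078 and 0.13), NDUFA13 without UVB replicates 1 or 3 or sauchinone replicates 2 or 3 (edgeR adjusted p = 0.16, 0.084, 0.076 and 0.12), and NDUFB2 without UVB replicates 1 or 3 or sauchinone replicates 1 or 3 (edgeR adjusted p = 0.12, 0.14, 0.20 and 0.098). NDUFB10 kept it only without UVB replicate 2 (edgeR adjusted p = 0.13 and 0.11 without UVB replicates 1 and 3, and 0.12, 0.06 and 0.067 without sauchinone replicates 1, 2 and 3), and NDUFB2-AS1 lost it without UVB replicates 2 or 3 or sauchinone replicate 1 (edgeR adjusted p = 0.10, 0.13 and 0.19).

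**Figure D3:**
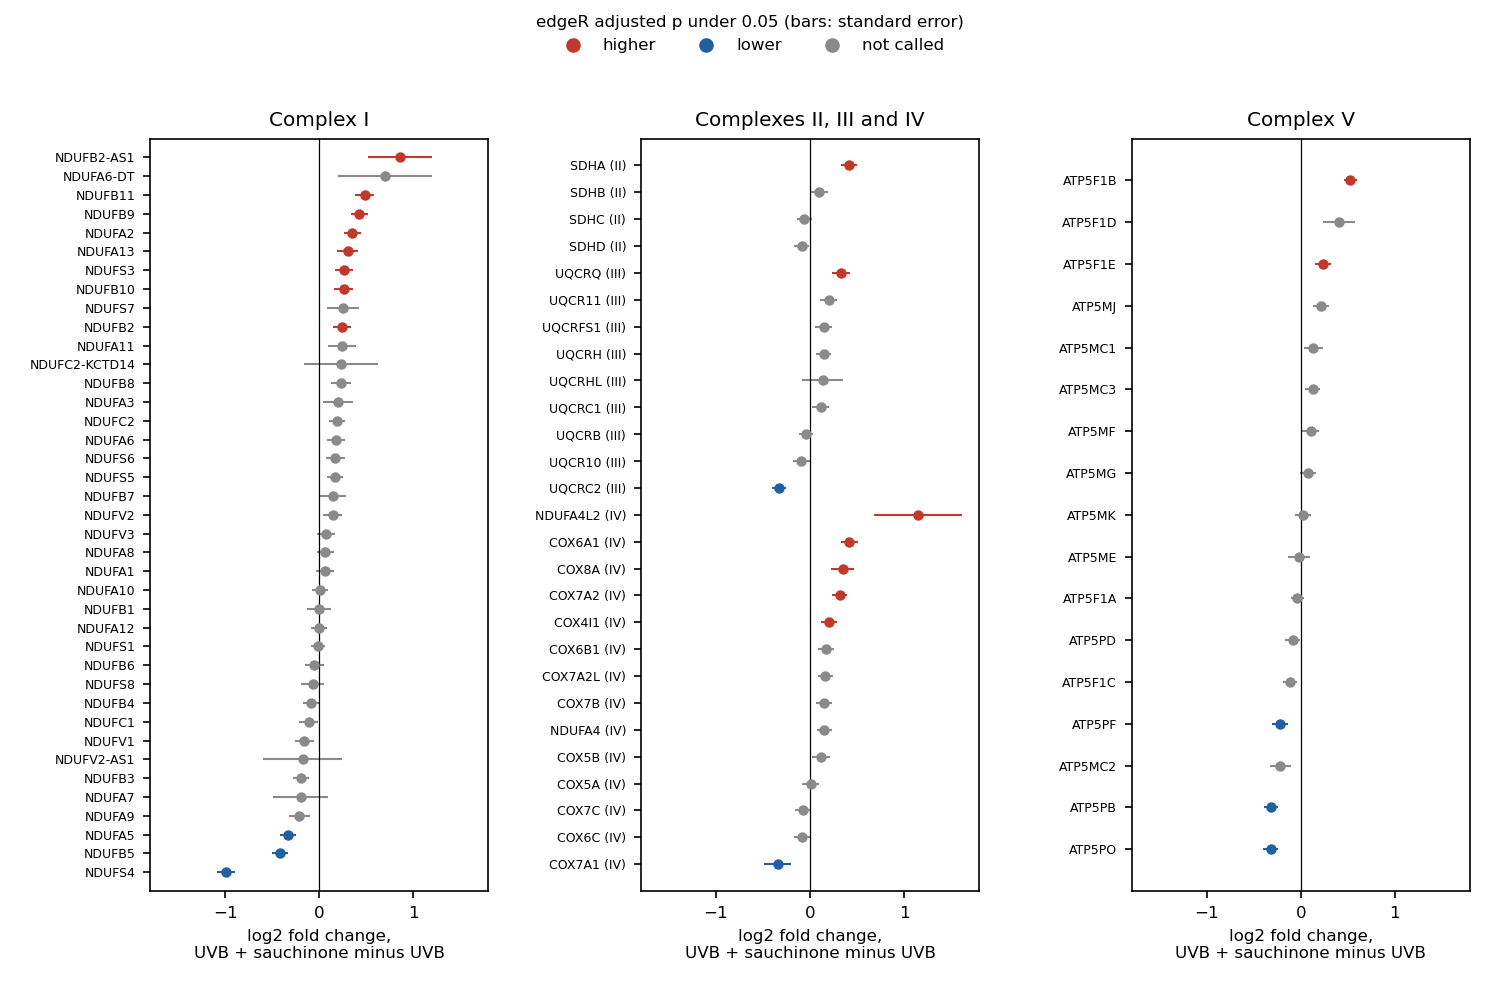
Log2 fold change, UVB + sauchinone minus UVB (x axis), of tested members, by complex, with bars for the standard error and colour for the call at an edgeR adjusted p under 0.05. Most members lie within 0.5 of zero, and NDUFS4 in complex I (-0.99) and NDUFA4L2 in complex IV (1.15) lie farthest out.

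Complex II is succinate dehydrogenase and is wholly nuclear, with 4 subunits. SDHA, the flavin subunit that oxidises succinate, read 37.7, 40.1 and 38.0 CPM with UVB and 51.7, 51.6 and 50.9 CPM with sauchinone. The groups were tight and far apart, and the log2 change was 0.41 ± 0.085 (edgeR adjusted p = 0.00034), or 1.33-fold. SDHB, its iron-sulfur partner, read 66.0, 67.7 and 53.5 against 70.9, 65.8 and 63.8 CPM, which overlapped (log2 0.10, interval -0.09 to 0.29). The membrane anchors SDHC and SDHD had log2 changes of -0.06 (interval -0.22 to 0.10) and -0.09 (interval -0.25 to 0.07), so SDHA was the only subunit called in this complex. Whether SDHA differed from the other 3 was not tested.

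Complex III had 9 tested members, with 1 higher, 1 lower and a median of 0.13, so 22.2% were called, against 49.6% of all genes tested. CYC1, a subunit of complex III outside the symbol rule, is not in these counts and is given with the electron carriers below. UQCRC2, a core protein of the matrix side, read 124.6, 131.5 and 126.3 CPM with UVB and 104.9, 102.4 and 98.0 CPM with sauchinone, without overlap (log2 -0.325 ± 0.075, edgeR adjusted p = 0.001). UQCRC1, its partner, read 90.8, 98.7 and 77.9 against 101.3, 87.9 and 100.2 CPM, with overlap and a log2 change of 0.11 (interval -0.07 to 0.30). UQCRFS1, the Rieske iron-sulfur protein, had 0.15 (interval -0.04 to 0.34). Of the 5 small subunits, UQCRQ, which lies beside cytochrome b, read 39.2, 46.7 and 36.5 CPM with UVB and 50.0, 51.2 and 52.2 CPM with sauchinone, all higher (log2 0.33, edgeR adjusted p = 0.0068). UQCRHL, a near copy of UQCRH, stood at 3.31 and 3.62 CPM, and its counts are uncertain because reads can fit both genes.

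Complex IV, cytochrome c oxidase, had the highest share of called members among the complexes, 6 of 14 (42.9%), below the 49.6% of all genes tested. The complex had 5 higher, 1 lower and a median of 0.16, where 24.7% of all genes were higher and 24.9% lower. Its 11 widely expressed subunits, short genes with a median span of 8.21 kb, held 4 of the rises and no fall. With the trend of counts with span removed, as described below, 1 of the 11, COX6A1, was higher. COX6C and COX7C were then lower, at log2 changes of -0.21 and -0.30, and the median was -0.06. Over all genes 24.3% were higher and 22.0% lower on that scale. COX6A1 read 69.2, 78.4 and 62.8 CPM with UVB and 96.5, 88.6 and 96.0 CPM with sauchinone, without overlap (log2 0.42 ± 0.088, edgeR adjusted p = 0.00042). COX7A2 read 87.3, 91.7 and 85.5 against 110.8, 109.4 and 108.8 CPM, also separate (log2 0.315, edgeR adjusted p = 0.0015). COX8A, whose promoter with the ETS letters is printed above, read 31.7, 35.2 and 23.6 against 42.6, 36.4 and 36.1 CPM, where the highest UVB library came close to the lowest sauchinone library (log2 0.35, edgeR adjusted p = 0.019). COX4I1, the largest nuclear subunit of the enzyme, had a log2 change of 0.20 (edgeR adjusted p = 0.041) with 139.8 ± 15.0 and 160.7 ± 2.44 CPM.

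The other 7 widely expressed subunits, COX5A, COX5B, COX6B1, COX6C, COX7B, COX7C and NDUFA4, lay between -0.09 and 0.17 on the log2 scale as fitted, and none was called there. COX6B1 and NDUFA4 had 0.17 (interval 0.00 to 0.35) and 0.15 (interval -0.01 to 0.31). COX7A2L, which helps join complexes III and IV into supercomplexes, had 0.16 (interval -0.01 to 0.34).

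Most tissue isoforms of complex IV were at 0 or near the floor of counting. COX4I2, COX6A2 and COX7B2 had no count in any library, which allows up to 3 counts, or 0.13 to 0.143 CPM per library, for counting error only, and COX8C had at most 4 counts. COX6A2 is a heart and skeletal muscle isoform and COX4I2 is known from lung. COX7A1, the muscle form of COX7A, was well above that floor: it read 10.3, 10.5 and 10.4 CPM with UVB and 6.86, 8.54 and 9.20 CPM with sauchinone, without overlap (log2 -0.345 ± 0.14, edgeR adjusted p = 0.046). Set per length against COX7A2, COX7A1 made up 27.9%, 27.4% and 28.6% of the pair's FPKM with UVB and 16.9%, 20.4% and 21.7% with sauchinone. The share thus went from 28.0% ± 0.61 to 19.7% ± 2.5 (SD, n = 3 each), without overlap, with a 2-sided exact permutation p of 0.1, the smallest that 3 against 3 allow, and 0.17 after adjustment over the 5 isoform shares compared.

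NDUFA4L2, a paralog of NDUFA4 known as a target of hypoxia signalling, had 10, 10 and 4 counts with UVB and 14, 23 and 20 with sauchinone, or 0.373 ± 0.171 and 0.827 ± 0.182 CPM. The log2 change was 1.15 ± 0.47 (edgeR adjusted p = 0.045), and its share of the pair with NDUFA4 went from 0.41% to 0.835% of FPKM (exact permutation p = 0.1). It lies opposite SHMT2, at 74.2 CPM, and whether the counting used strand is not stated, so its few counts cannot be told apart from reads of that gene. The share of COX6B2, with 5 counts at most in a library, was 0.0271% and 0.0902% (exact permutation p = 0.1), and that of COX8C gave a p of 1.0 in the same test.

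When libraries were left out, COX4I1 kept its call only without UVB replicate 2 (edgeR adjusted p = 0.16 and 0.12 without UVB replicates 1 and 3, and 0.12, 0.073 and 0.11 without sauchinone replicates 1, 2 and 3). COX7A1 kept it only without sauchinone replicate 3 (edgeR adjusted p = 0.088, 0.074 and 0.061 without UVB replicates 1, 2 and 3, and 0.24 and 0.067 without sauchinone replicates 1 and 2). NDUFA4L2 lost it without UVB replicates 1 or 3 or sauchinone replicates 2 or 3 (edgeR adjusted p = 0.055, 0.21, 0.16 and 0.10), and COX8A without UVB replicate 3 or sauchinone replicate 1 (edgeR adjusted p = 0.099 and 0.12), the former with a log2 change of 0.19.

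Complex V had 17 tested members, with 2 higher, 3 lower and a median of 0.03, so 29.4% were called, against 49.6% of all genes tested. ATP5F1B, the catalytic beta subunit and the most abundant member of all per length at 263.7 FPKM with UVB, had the smallest adjusted p of the members called higher. ATP5F1B (chr12:56638175-56645984, GRCh38, minus strand) read 599.9, 654.0 and 544.9 CPM with UVB and 861.3, 858.2 and 871.6 CPM with sauchinone. The 3 sauchinone libraries lay close together, far above the UVB libraries. The means of 599.6 ± 54.6 and 863.7 ± 7.04 CPM gave a log2 change of 0.53 ± 0.071, or 1.44-fold (edgeR adjusted p = 1.9e-06). ATP5F1A, the alpha subunit that alternates with beta in the F1 head, read 481.4, 526.1 and 461.0 CPM with UVB and 476.6, 476.5 and 477.9 CPM with sauchinone. Its groups overlapped, and the log2 change was -0.04 with an interval from -0.18 to 0.10, which does not reach the change of ATP5F1B.

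The other F1 subunits were mixed. ATP5F1E, the epsilon subunit of the central stalk, read 57.4, 64.7 and 58.2 against 69.6, 71.4 and 71.2 CPM, without overlap (log2 0.24, edgeR adjusted p = 0.022), and lost its call without UVB replicate 1 or any 1 of the sauchinone replicates (edgeR adjusted p = 0.14 without the former, and 0.057, 0.062 and 0.064 without the latter 3). ATP5F1D, the delta subunit, had the values 6.03 ± 1.29 and 7.98 ± 1.2 CPM and a log2 change of 0.40 (edgeR adjusted p = 0.055). ATP5F1C, the gamma subunit that turns inside the head, had -0.12 (interval -0.26 to 0.03).

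The 4 subunits of the peripheral stalk, which holds the head still while the rotor turns, had log2 changes below zero, with a median of -0.27. Of them 3 were called lower, where 24.9% of all genes tested were. ATP5PB read 172.4, 177.9 and 180.1 CPM with UVB and 147.7, 142.3 and 136.0 CPM with sauchinone, without overlap (log2 -0.32 ± 0.072, edgeR adjusted p = 0.00092). ATP5PO, which joins the stalk to the head, read 87.2, 92.1 and 85.5 against 74.5, 69.9 and 67.6 CPM, also separate (log2 -0.32, edgeR adjusted p = 0.002). ATP5PF read 54.0, 57.7 and 51.4 against 47.5, 46.9 and 46.0 CPM (log2 -0.22, edgeR adjusted p = 0.04), a call that held without UVB replicate 3 but not without UVB replicates 1 or 2 (edgeR adjusted p = 0.11 and 0.12) or any of the sauchinone replicates (edgeR adjusted p = 0.10, 0.08 and 0.12). ATP5PD, the last of the 4, had -0.09 (interval -0.26 to 0.09). Protein was not measured.

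No member of the rotor ring or of the remaining membrane subunits was called. The ring genes ATP5MC1, ATP5MC2 and ATP5MC3, which encode the same mature protein, had log2 changes of 0.14, -0.22 and 0.13. ATP5MC1 made up 21.2% ± 0.95 of their FPKM with UVB and 22.0% ± 0.72 with sauchinone (exact permutation p = 0.4). The 5 membrane subunits, ATP5ME, ATP5MF, ATP5MG, ATP5MJ and ATP5MK, lay between -0.02 and 0.21, with ATP5MJ nearest to a call (edgeR adjusted p = 0.052). ATP5MGL had no count in any library.

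**Figure D4:**
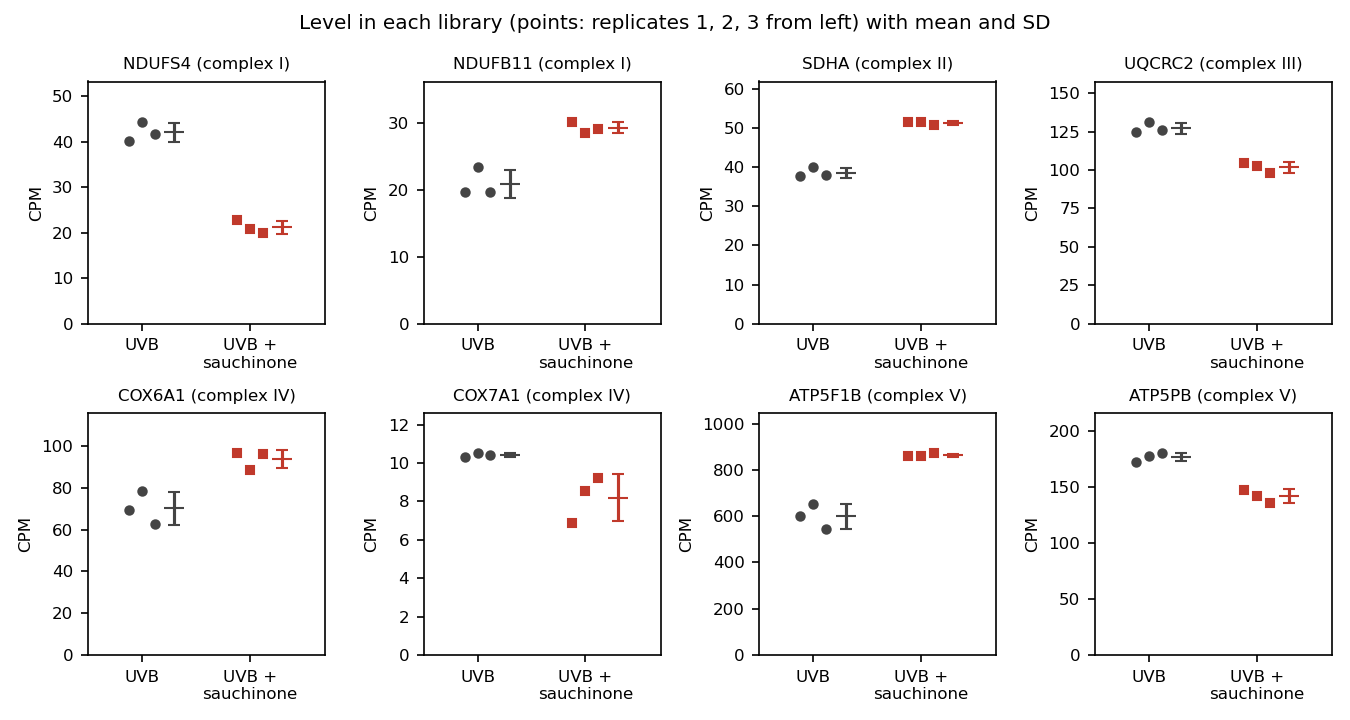
CPM (y axis, from 0) of 8 members in each library, replicates 1 to 3 from left to right, for UVB (grey circles) and UVB + sauchinone (red squares), with the mean and SD beside them. NDUFS4, UQCRC2, COX7A1 and ATP5PB lie lower with sauchinone and NDUFB11, SDHA, COX6A1 and ATP5F1B higher, without overlap in any of the 8.

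Direction followed the length of a gene across the whole table, and the members are short. Their median genomic span was 12.6 kb against 28.0 kb for all genes tested. All genes tested were split into 5 groups of equal size by span, and the members fell into them as 26, 30, 17, 7 and 4 from shortest to longest. In the shortest group 8 of 26 members were higher and 1 lower, where 29.4% of all genes were higher and 8.12% lower. In the next, 5 of 30 were higher and 3 lower, against 35.5% and 11.8% of all genes, and in the middle group 3 of 17 were higher and 4 lower, against 29.6% and 17.6%. In the fourth group 1 of 7 was higher and 0 lower, against 20.7% and 28.6%, and in the longest 0 of 4 were higher and 1, NDUFS4, lower, against 7.99% and 58.5%.

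With a smooth trend of counts with span removed from each library, the members' direction turned: 8 were higher and 19 lower, with a median of -0.05, so higher calls went from 65.4% to 29.6% of the calls. Over all genes 24.3% were then higher and 22.0% lower. With a trend with exonic length removed, 10 were higher and 15 lower. NDUFS4, at 123 kb, stayed lower with the span trend removed (log2 -0.69, edgeR adjusted p = 3.5e-06), as did NDUFB5 at -0.53, and ATP5F1B, SDHA, NDUFB9, NDUFB11 and COX6A1 stayed higher at 0.32, 0.39, 0.41, 0.26 and 0.20. Of the calls made without this step, 12 of the 17 higher ones ended, those of NDUFA2, NDUFA13, NDUFB2, NDUFB2-AS1, NDUFB10, NDUFS3, UQCRQ, COX4I1, COX7A2, COX8A, NDUFA4L2 and ATP5F1E, while all 9 lower ones held. The 3 other long members, all uncalled as fitted, were NDUFA10 (133 kb), NDUFA12 (108 kb) and COX7A2L (91.5 kb). They had log2 changes of 0.00, 0.00 and 0.16, and of 0.35, 0.24 and 0.34 with the trend removed (edgeR adjusted p = 0.001, 0.023 and 0.002). Which of these scales fits the cells was not tested.

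**Figure D5:**
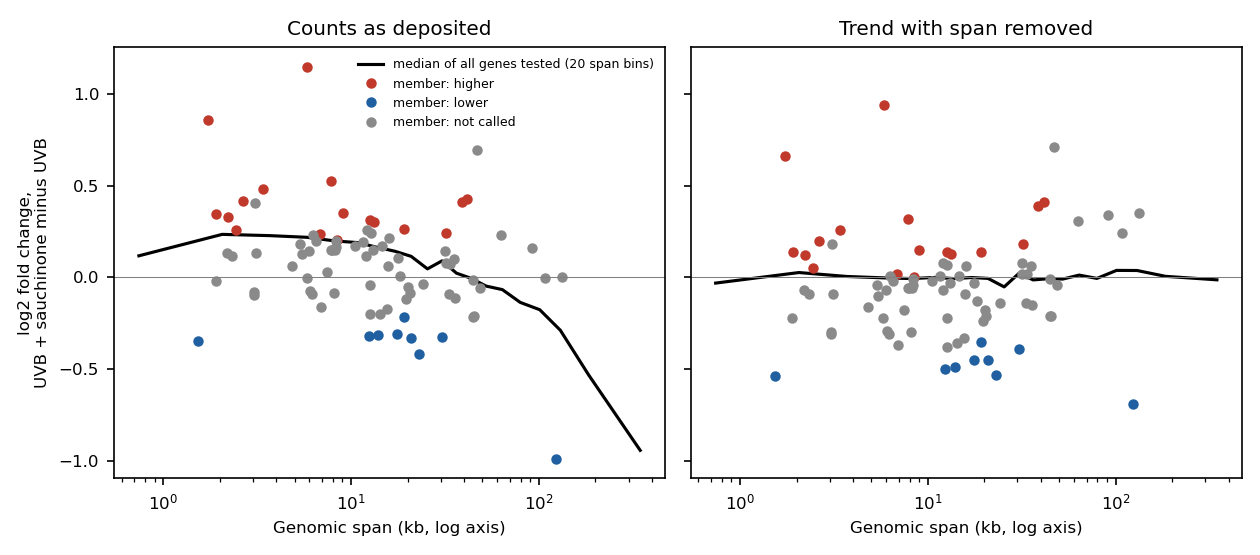
Log2 fold change, UVB + sauchinone minus UVB (y axis), of the tested members against genomic span in kb (x axis, log scale), as fitted (left) and with the span trend removed (right), with the median of all genes tested in 20 span bins as a black line; colours in both panels show the calls as fitted. The black line falls with span on the left and lies near zero on the right, and NDUFS4 lies low in both panels.

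Counting without strand would mix members with genes that overlap them on the other strand, and 23 of the 84 tested members have such a gene at 10% or more of their own CPM. Without those 23, 9 of 61 were higher and 6 lower, where 24.7% of all genes tested were higher and 24.9% lower. The share of all genes tested that have such a partner is not given here. Among the called members named above, NDUFB11 shares its place with RBM10 (35.8 CPM, log2 change 0.52), NDUFA2 with IK (173 CPM, 0.13), NDUFB9 with TATDN1 (15.1 CPM, -0.72), ATP5PB with WDR77 (49.3 CPM, 0.13) and ATP5PF with GABPA (47.2 CPM, 0.03). NDUFS3 shares its place with CELF1 (122 CPM, 0.28) and KBTBD4 (12.1 CPM, 0.31), NDUFB2 with BRAF (47.6 CPM, -0.46) and COX4I1 with EMC8 (28.7 CPM, 0.47), and NDUFB2-AS1 and NDUFA4L2 were given above. On their own strand, NDUFB2 also overlaps ADCK2 (11.7 CPM, 0.90) and NDUFS3 overlaps PTPMT1 (16.8 CPM, 0.06), which counting by strand would not separate. NDUFS4, SDHA, COX6A1, ATP5F1B, UQCRC2 and NDUFB5 have no partner on either strand at 10% or more of their own CPM.

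Assembly factors, which build a complex and leave it, were mixed: of 18 for complex I, 2 were higher and 5 lower (median -0.11), of 4 for complex II 2 and 1 (0.06), of 6 for complex III 1 and 1 (-0.04), of 27 for complex IV 5 and 3 (0.02) and of 6 for complex V 1 and 1 (0.11). In that order 38.9%, 75.0%, 33.3%, 29.6% and 33.3% were called, against 49.6% of all genes tested (24.7% higher and 24.9% lower). COA1 and NUBPL, which help assemble complex I, were lower at log2 changes of -0.68 and -1.01 (edgeR adjusted p = 9.5e-07 and 2e-05). The call of NUBPL held in 16 of the 17 alternatives and ended with the span trend removed (-0.07, edgeR adjusted p = 0.76), where COA1 had -0.38. SDHAF1, which helps insert the iron-sulfur clusters of SDHB, was higher at 1.01, from 2.34 ± 0.277 to 4.72 ± 0.529 CPM, and SDHAF4, which serves SDHA, lower at -0.46. For complex IV COA5 and CMC1 were lower at -0.60 and -0.65, and for complex V TMEM70 was higher at 0.46 (0.27 with the span trend removed). For complex III TTC19 was higher at 0.26 and UQCC1 lower at -0.30, a call that ended with the span trend removed (-0.06, edgeR adjusted p = 0.63), and for complex V ATPAF1 was lower at -0.21. These 3 calls and that of SDHAF4 were lost in some fits without a library: the highest edgeR adjusted p was 0.085 for TTC19 (without UVB replicate 2), 0.051 for UQCC1 and 0.20 for ATPAF1 (without sauchinone replicate 1) and 0.10 for SDHAF4 (without sauchinone replicate 1).

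Of 21 tested genes for electron carriers and coenzyme Q synthesis, 5 were higher (23.8%) and 6 lower (28.6%), near the 24.7% and 24.9% of all genes. PDSS2, which makes the tail of coenzyme Q, read 23.6, 26.1 and 23.6 CPM with UVB and 8.44, 8.41 and 9.93 CPM with sauchinone, a log2 change of -1.45 (edgeR adjusted p = 9.8e-10). It spans 307 kb and had -0.61 with the span trend removed. CYC1, cytochrome c1, is a subunit of complex III that the symbol rule did not take, and CYCS is cytochrome c. CYC1 and CYCS were higher at 0.39 and 0.305 (edgeR adjusted p = 0.0057 and 0.0018), and both calls ended with the span trend removed (0.18 and 0.08). ETFA, which feeds electrons from fatty acids, was lower at -0.515, and at -0.21 with the span trend removed.

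A list of nuclear regulators of respiratory genes also held enzymes that copy or transcribe mitochondrial DNA. Of its 16 tested genes, 7 were higher and 1, TFB1M, lower, with a median of 0.40, where 24.7% of all genes were higher and 24.9% lower. The enzymes TWNK, POLRMT, POLG and POLG2 had the largest rises of the 7. TWNK, the helicase of mitochondrial DNA, read 12.7, 13.5 and 10.9 CPM with UVB and 32.7, 35.8 and 25.0 CPM with sauchinone (log2 1.34, edgeR adjusted p = 1.5e-08). POLRMT, the mitochondrial RNA polymerase, read 11.8, 12.2 and 9.78 against 26.4, 23.6 and 23.1 CPM (log2 1.11, edgeR adjusted p = 6.1e-08). POLG and POLG2, the mitochondrial DNA polymerase subunits, had 0.88 and 0.99, and TFAM, which packs and transcribes that DNA, 0.54 (edgeR adjusted p = 0.00031). PPRC1 and ESRRA were the others higher, at 0.48 and 0.45. The call of ESRRA ended with the span trend removed (edgeR adjusted p = 0.085), and that of TFB1M (-0.37) ended without sauchinone replicates 1 or 2 (edgeR adjusted p = 0.054 and 0.061). Of the factors best known for driving the subunit genes, NRF1 had 0.18 (edgeR adjusted p = 0.34) as fitted and was called higher, at 0.57, with the span trend removed (edgeR adjusted p = 0.0046). GABPA was not called, at 0.03 (edgeR adjusted p = 0.83), and PPARGC1A was too low to test at 0.138 and 0.0594 CPM.

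The subunits made from mitochondrial DNA were mostly lower. Of the 13 protein genes, 2 were higher and 9 lower, with a median of -0.28, where 24.7% of all genes were higher and 24.9% lower. Their summed level overlapped between the groups, at 22800 to 25800 CPM with UVB and 21500 to 24000 CPM with sauchinone. MT-ND4 and MT-ND4L, of complex I, were lower at -0.52 and -0.60 (edgeR adjusted p = 2.1e-06 and 2.4e-06), and MT-ND1 and MT-ND2, also of complex I, were higher at 0.42 and 0.20. The call of MT-ND2 ended without UVB replicates 1 or 3 or sauchinone replicate 3 (edgeR adjusted p = 0.058, 0.061 and 0.14) and with the span trend removed, where MT-ND1 had 0.25. The import and cristae genes had 8 higher and 9 lower of 30 tested (median 0.03), with CHCHD3 and APOOL of the cristae junctions lowest in p at -1.15 and -1.10. The tricarboxylic acid cycle had 4 higher and 5 lower of 14 (median 0.04), with SUCLG2 at -1.20 and FH, which acts after succinate dehydrogenase, at -0.69. CHCHD3 and SUCLG2 span 297 and 294 kb and had -0.33 and -0.39 with the span trend removed.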

How the data were processed

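RNA-seq gene counts of 6 libraries, 3 irradiated with UVB and 3 irradiated and given sauchinone, were analysed. Per the labels' protocols, libraries were strand-specific (dUTP) and sequenced as paired ends, after poly(A) selection or removal of ribosomal RNA, without saying which; a version with compound added before irradiation is also described. The authors deposited raw counts per gene, FPKM values and exonic sizes, and the submitters' processing notes name GRCh38. No source used here names the aligner or the counter, or says how strand and reads that fit several places were handled. FPKM equalled the count scaled by the deposited exonic size and the library total; it was used only for levels between genes and isoform shares, and it depends on all annotated exons of a gene.

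Counts were tested with edgeR 4.0.16 in R 4.3.3 (filterByExpr, TMM, glmQLFit, glmQLFTest, 2-sided, Benjamini-Hochberg over 15704 genes, threshold 0.05, no covariate); CPM use TMM-scaled library sizes, and 95% intervals use the t distribution with the fit's degrees of freedom. Of 94 members, 84 passed the filter; NDUFV1-DT, UQCRB-AS1, UQCRFS1-DT, COX4I2, COX6A2, COX6B2, COX7B2, COX8C, ATP5MF-PTCD1 and ATP5MGL did not. The dropped pseudogene symbols held between 0.0568% and 0.0867% of the members' counts. A floor of 3 counts is 0.13 to 0.143 CPM. Isoform shares were compared by exact permutation tests (SciPy 1.17.1). The fit was tested on simulated counts of 15704 genes for this comparison: it called 29 of 67 at a true 1.3-fold change, 51 of 67 at 1.5-fold and 55 of 66 at 2-fold, and 8 of its 143 calls were false. No other simulated gene was changed, a far smaller share than the 49.6% called in the data.

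The values of 1 member are not reported here; it stays in the counts and medians. Members and gene lists were chosen with earlier results of these data known. Named were all core and catalytic subunits among the members, isoform pairs, and the 3 largest rises and falls called in each complex. Named too were 2 genes of each companion list with the smallest p, and 5 regulators. Other called members, POLG, POLG2, PPRC1, TFB1M, MT-ND1, MT-ND2, CYC1, CYCS, NDUFA10 and NDUFA12 were added after their values were seen. The alternatives were DESeq2 1.42.0, limma-voom (limma 3.58.1), edgeR's glmTreat against 1.2-fold, 3 other scalings, 2 other filters, a replicate block, removal of trends with genomic span or exonic size (lowess, span 0.3), and each library left out.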

Additional observations from a re-analysis of the deposited data

How the results depend on the processing

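Respiratory chain members called higher numbered 17 and called lower 9, with a median log2 change of 0.117. The higher count moved by over 1.5 times with glmTreat against 1.2-fold (5), library size only (27), the span trend removed (8) and the exonic size trend removed (10), and the lower count with glmTreat (2), the span trend removed (19) and the exonic size trend removed (15). The median became -0.048 with the span trend removed and 0.042 with the exonic trend removed. Leaving out 1 library gave 10 to 27 higher, 7 to 9 lower and medians from 0.036 to 0.16; 8 of the 17 higher and 7 of the 9 lower calls held in all 6 such fits. An alternative chosen after seeing the data left out the 23 members that overlap an opposite-strand gene at 10% or more of their own CPM. Of the other 61, 9 were higher and 6 lower, against 24.7% and 24.9% of all genes tested. With the replicate number as a block the counts were 14 and 7; same-numbered libraries had correlations of 0.00716, -0.0776 and -0.031 in their deviations from the group means, so the numbers were not taken to pair the libraries. DESeq2 gave 14 and 8, limma-voom 17 and 9, RLE scaling 17 and 9, upper-quartile scaling 15 and 9, no filter 15 and 7 of 90 tested, and a filter of 1 CPM in 3 libraries 17 and 9 of 80 tested.

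Over all 17 alternatives SDHA, ATP5F1B, COX6A1, NDUFB11 and NDUFB9 were called higher and NDUFS4 and NDUFB5 lower; UQCRC2, ATP5PB and ATP5PO were called lower in all but glmTreat. Of 849 recomputed values of 50 named members, 714 kept their direction and side of the threshold or lay on the same side without a call, 104 lost a call and 28 gained one. With a call in at least 1 of the fits compared, the direction turned for NDUFS1 with the exonic trend removed (0.209), for COX4I1 with the span trend removed (-0.00158) and for NDUFA12 with the span trend removed (0.24). With no call in either fit, the sign changed for 6 named members with the span trend removed (UQCRC1, UQCRFS1, COX6B1, NDUFA4, ATP5MC1 and ATP5MC3), for 4 with the exonic trend removed (SDHB, ATP5F1A, ATP5MC1 and NDUFA12) and for 12 in at least 1 alternative; the span and exonic trends are set by the offsets, and what underlies the trends was not tested. At this depth and 3 libraries a group, simulated 1.3-fold changes were recovered for 43.3% of the genes changed. Few genes were changed there, where 49.6% were called in the data, and they were not matched to the members in level. The share recovered is therefore not a rate for the members. A member with no call may still have changed by the sizes its interval allows.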
